A study of Homo sapiens with 6 samples.

Results

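BH3-only genes encode the proteins that start apoptosis at the mitochondrion. The 8 genes described here are HRK, PMAIP1, BBC3, BCL2L11, BAD, BIK, BMF and BID. They were taken by symbol, each mapped to 1 Ensembl identifier, from 60671 gene rows, as the classical members of the family, with earlier results of these data known. RNA was sequenced from NCI-H69, an established human line from small cell lung cancer, a neuroendocrine tumour, labelled wild type (WT), in 3 libraries after 48 h with the vehicle DMSO and 3 after 48 h with GNF5. GNF5 is an allosteric inhibitor of the ABL kinases, labelled as 20 µM for each sample, while the treatment text of the same labels gives that number in millimolar. The cells were grown in RPMI1640 medium with fetal bovine serum. All libraries come from this 1 line, and nothing in the labels says that they are separate cultures, so p-values measure the spread between these libraries, which may be technical.

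In the mitochondrial pathway, guardians such as BCL2, BCL-XL (gene BCL2L1) and MCL1 hold the pore formers BAX and BAK in check. BH3-only proteins carry a single short helix, the BH3 domain, that fits the groove of a guardian and displaces its cargo, and some of them also activate BAX and BAK directly. Members differ in how they are controlled, some mainly by transcription and others by phosphorylation, anchoring or cleavage, and in which guardians they bind. Small cell lung cancer lines as a class are known for their dependence on BCL2 family guardians.

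The libraries held between 46148701 and 60697602 counts. Levels are given as CPM, which are counts scaled to a common library total with TMM factors. A log2 fold change is positive where GNF5 was higher and stands with its standard error (SE). A gene was called at a Benjamini-Hochberg adjusted p under 0.05 in edgeR's quasi-likelihood test over 20734 genes. The 10 neuroendocrine markers summed to 3808 to 3910 CPM with DMSO and 4077 to 4242 CPM with GNF5, INSM1 being the highest of them. Singly they moved both ways, with 3 called higher and 3 lower (30.0% each, against 31.0% and 30.7% of all genes). Their median log2 fold change was 0.03. The erythroid markers summed to at most 0.372 CPM and the leukocyte markers to at most 4.93 CPM, with CD3E at 0 counts. Fibroblast markers summed to 120.2 to 125.9 CPM with DMSO and 64.8 to 72.0 with GNF5, nearly all of it from COL1A2, with COL3A1 at 0 counts. Of the 6 fibroblast markers, 4 were tested, with 1 called higher and 2 lower. Lung epithelium markers summed to 23.1 to 24.1 and 13.9 to 16.3 CPM, most of it from NKX2-1, with SFTPB at 0 counts. The part of these marker differences in the results below was not tested. In bulk RNA, fewer cells that carry a transcript and less of it per cell cannot be told apart.

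The promoters of the 3 members that rose and of the member with the largest called fall are shown first, because transcription is a known control point of these genes. The sequences are from RefSeq (GRCh38.p14), each on the strand of its gene. HRK and PMAIP1 end at the start site, while BBC3 and BMF end where the Ensembl gene model begins, so that their last bases before the RefSeq start site (the first one listed) are not shown. The HRK sequence lies at chr12:116881442-116881691 (minus strand), PMAIP1 at chr18:59899746-59899995 (plus strand), BBC3 at chr19:47232767-47232917 (minus strand) and BMF at chr15:40108893-40109129 (minus strand). Capitals mark every match to 1 of 7 motifs on either strand.
HRK: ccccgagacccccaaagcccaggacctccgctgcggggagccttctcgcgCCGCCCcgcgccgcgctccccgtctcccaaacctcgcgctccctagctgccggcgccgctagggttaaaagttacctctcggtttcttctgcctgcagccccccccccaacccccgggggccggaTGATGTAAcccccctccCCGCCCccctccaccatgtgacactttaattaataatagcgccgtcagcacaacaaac
PMAIP1: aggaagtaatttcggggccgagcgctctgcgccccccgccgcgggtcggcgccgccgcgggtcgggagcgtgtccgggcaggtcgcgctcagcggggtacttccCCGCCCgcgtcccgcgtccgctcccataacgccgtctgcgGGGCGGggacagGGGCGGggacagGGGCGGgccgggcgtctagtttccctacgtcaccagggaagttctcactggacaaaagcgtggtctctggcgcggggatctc
BBC3: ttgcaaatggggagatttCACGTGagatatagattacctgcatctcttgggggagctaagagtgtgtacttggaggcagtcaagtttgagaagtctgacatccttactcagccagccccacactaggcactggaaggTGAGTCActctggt
BMF: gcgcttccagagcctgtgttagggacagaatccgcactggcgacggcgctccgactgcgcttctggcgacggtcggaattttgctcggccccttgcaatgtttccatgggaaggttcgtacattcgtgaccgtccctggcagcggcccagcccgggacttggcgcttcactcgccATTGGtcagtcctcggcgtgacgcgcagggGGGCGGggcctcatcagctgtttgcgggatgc

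The motifs searched were TGATGNAA (the composite element of C/EBP and ATF factors), TGACGTCA (cAMP response element), TGANTCA (AP-1), GTAAACA (FOXO), GGGCGG (GC box), CACGTG (E-box) and CCAAT. None of these motifs contains another, and matches were counted on both strands in the 250 bases before the start site. HRK held 1 TGATGTAA, whose first base lies 75 bases before the start site, and TGATGNAA occurred in 3.19% of 27305 promoter windows of that length. It was not found in the windows of the other 6 members that have an entry. HRK also held 2 GC boxes and PMAIP1 held 4, a motif present in 42.3% of windows. BBC3 held an AP-1 match (TGANTCA, in 6.6% of windows) and an E-box (6.49% of windows), and BMF a GC box and a CCAAT box (33.0% of windows). BBC3 also held a CCAAT match, in the stretch that is not shown. BCL2L11, a known FOXO target, had 1 GTAAACA match, which occurred in 2.98% of windows. These are letter matches in a short window and say nothing of whether a factor was bound.

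Of the 8 BH3-only genes, all 8 passed the expression filter, 3 were called higher with GNF5 and 3 lower, and 2 were not called. HRK rose 3.34-fold, and PMAIP1 and BBC3 each rose 1.39-fold, whereas BMF, BCL2L11 and BID fell. Among all genes tested, 61.6% were called, 31.0% higher and 30.7% lower, so the 6 of 8 members called (75.0%) stand near the share over all genes. In 6 of the 8 members the libraries of one group did not overlap those of the other, where 65.9% of all tested genes had no overlap. The median log2 fold change of the members was -0.08 against 0.006 for all tested genes. The median absolute log2 fold change was 0.40 against 0.34. Against a change of at least 1.5-fold, HRK alone of the 8 was called, where 13.5% of all genes were.

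**Figure D1:**
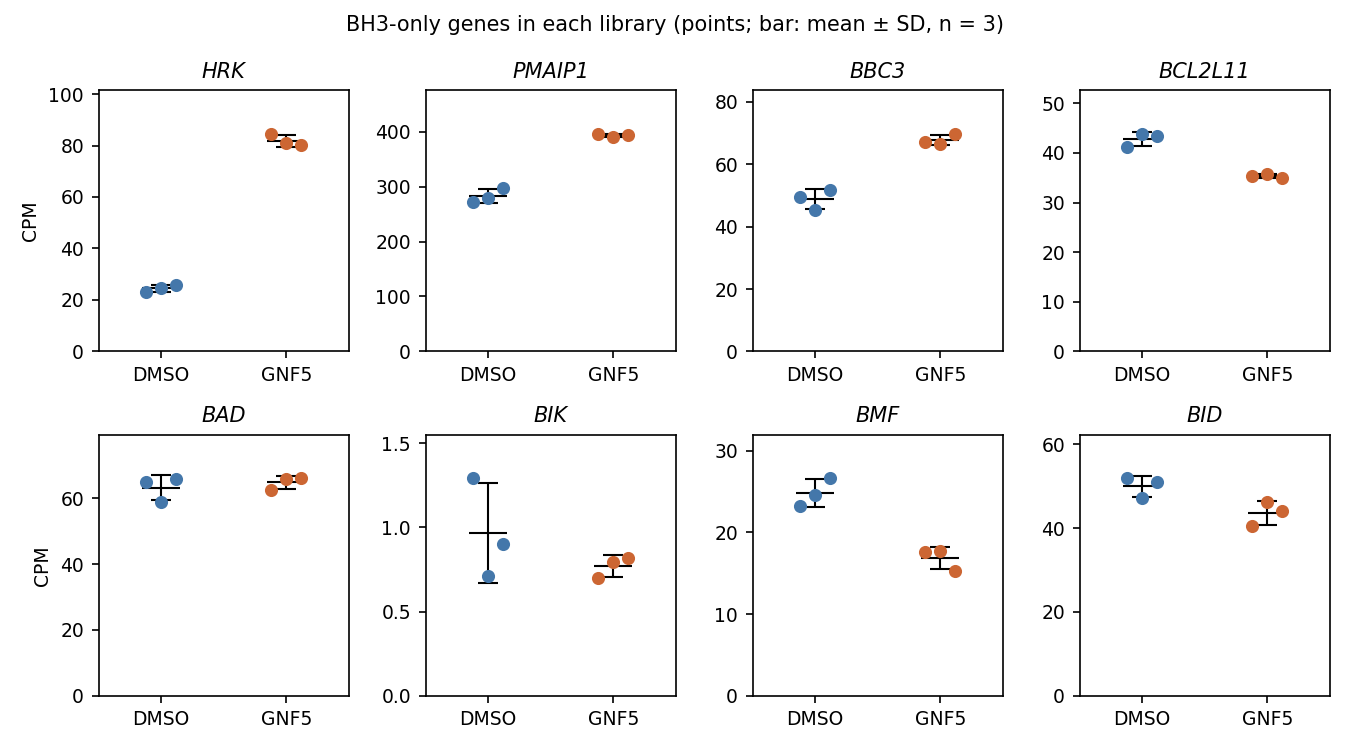
Each panel plots 1 BH3-only gene, with CPM on the vertical axis from 0, the group on the horizontal axis, points for libraries and bars for the mean ± SD (n = 3). HRK, PMAIP1 and BBC3 lie higher with GNF5 without overlap, BCL2L11, BMF and BID lower without overlap, and BAD and BIK overlap.

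HRK (Harakiri) is a BH3-only protein best known from neurons deprived of trophic factor, and it binds mainly BCL-XL. The gene (ENSG00000135116) lies on chromosome 12 from 116856144 to 116881441 (GRCh38, minus strand). HRK stood at 23.0, 24.7 and 25.9 CPM in DMSO replicates 1 to 3 and at 84.5, 81.1 and 80.1 CPM in GNF5 replicates 1 to 3. The lowest GNF5 library was 54.2 CPM above the highest DMSO library, and the 9 ratios between libraries ran from 3.10 to 3.67. The log2 fold change was 1.74 ± 0.047 (SE), with a 95% interval of 1.64 to 1.84 (edgeR adjusted p = 2.87e-22). HRK had a larger log2 fold change than 98.6% of all tested genes.

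Among the genes whose centred log2 CPM over the 6 libraries lay closest to that of HRK, of 11062 ranked, were ASNS and ERAP2. ASNS, asparagine synthetase, differed from HRK by a root mean square of 0.033 on the log2 scale and stood at 11.7 ± 0.286 CPM (SD, n = 3) with DMSO and 39.1 ± 1.76 with GNF5. ERAP2, a peptidase of the endoplasmic reticulum, differed by 0.052. Their log2 fold changes of 1.74 and 1.75 match that of HRK because the measure selects for it.

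PMAIP1 encodes NOXA, which binds MCL1 and promotes its breakdown. It (ENSG00000141682) lies on chromosome 18 from 59899996 to 59904305 (plus strand). PMAIP1 stood at 272.7, 279.3 and 296.6 CPM with DMSO and at 395.9, 389.9 and 393.4 CPM with GNF5. The GNF5 libraries spread less (SD 2.98 CPM) than the DMSO libraries (SD 12.4 CPM), and the lowest of the former was 93.3 CPM above the highest DMSO library. The log2 fold change was 0.47 ± 0.034 (SE), with a 95% interval of 0.41 to 0.54 (edgeR adjusted p = 8.12e-13).

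BBC3 encodes PUMA, which binds all the main guardians and is a classic target of p53. The gene (ENSG00000105327) lies on chromosome 19 from 47220822 to 47232766 (minus strand). BBC3 stood at 49.6, 45.3 and 51.6 CPM with DMSO and at 67.2, 66.4 and 69.7 CPM with GNF5. The groups did not overlap, with a gap of 14.8 CPM. The log2 fold change was 0.47 ± 0.046 (SE), with a 95% interval of 0.38 to 0.57 (edgeR adjusted p = 5.02e-10). A microRNA gene on the same strand, MIR3191, covers 2.39% of the exon bases of BBC3, and fragments that fall on both are left out by the counter.

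BCL2L11 encodes BIM, a strong activator that binds every guardian and is held at microtubules through the dynein light chain DYNLL1. The gene (ENSG00000153094) lies on chromosome 2 from 111119378 to 111168445 (plus strand). BCL2L11 stood at 41.3, 43.8 and 43.5 CPM with DMSO and at 35.3, 35.8 and 35.0 CPM with GNF5. All GNF5 libraries were lower than all DMSO libraries, by at least 5.47 CPM, and BCL2L11 fell by 0.28 ± 0.045 (SE) on the log2 scale (edgeR adjusted p = 5.10e-06). The noncoding gene MIR4435-2HG overlaps 10.9% of its exon bases on the opposite strand and rose from 2.42 ± 0.211 to 7.10 ± 0.849 CPM. Counting was by strand, per the file headers.

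BMF binds the guardians after release from the actin cytoskeleton, where DYNLL2 holds it. The gene (ENSG00000104081) lies on chromosome 15 from 40087890 to 40108892 (minus strand). BMF stood at 23.3, 24.6 and 26.6 CPM with DMSO and at 17.6, 17.7 and 15.3 CPM with GNF5. The groups were 5.55 CPM apart, and BMF fell by 0.56 ± 0.065 (SE) on the log2 scale (edgeR adjusted p = 1.60e-08). It had the largest called fall of the members, 1.47-fold.

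BID links death receptors to mitochondria, since caspase 8 cleaves it to its active form. The gene (ENSG00000015475) lies on chromosome 22 from 17734138 to 17774770 (minus strand). BID stood at 51.9, 47.2 and 51.0 CPM with DMSO and at 40.6, 46.2 and 44.2 CPM with GNF5. The groups came within 0.941 CPM of each other, DMSO replicate 2 being the lowest of its group and GNF5 replicate 2 the highest of the other. BID fell by 0.20 ± 0.050 (SE) on the log2 scale (edgeR adjusted p = 0.0011), the smallest of the called changes.

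BAD, which survival kinases phosphorylate and 14-3-3 proteins then hold in the cytosol, was not called. The gene (ENSG00000002330) lies on chromosome 11 from 64269830 to 64284704 (minus strand). BAD stood at 64.9, 58.9 and 65.9 CPM with DMSO and at 62.4, 66.0 and 66.1 CPM with GNF5. The groups overlapped, and the log2 fold change of 0.04 ± 0.045 (SE) had a 95% interval of -0.06 to 0.13 (edgeR adjusted p = 0.504). GPR137, on the opposite strand, covers 23.7% of the exon bases of BAD and fell from 58.3 ± 2.08 to 35.1 ± 2.27 CPM.

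BIK, a protein of the endoplasmic reticulum membrane, was the member with the lowest level and was not called. The gene (ENSG00000100290) lies on chromosome 22 from 43110750 to 43129712 (plus strand). BIK had 73, 43 and 52 counts in the DMSO libraries and 41, 37 and 43 in the GNF5 libraries, or 0.711 to 1.29 CPM and 0.698 to 0.821 CPM. DMSO replicate 1 was the highest library and the rest overlapped. The log2 fold change of -0.33 ± 0.248 (SE) had a 95% interval of -0.83 to 0.18 (edgeR adjusted p = 0.261). The estimate rested on single DMSO libraries, being -0.07 without DMSO replicate 1 and -0.52 without DMSO replicate 2.

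Compared between genes, levels were taken per kilobase of exon (CPM per kb), with the exon length of the authors' gene model, which joins all annotated transcripts. PMAIP1 was the most abundant member in both groups, at 129.4 ± 5.65 CPM per kb with DMSO and 179.8 ± 1.37 with GNF5 (SD, n = 3). BAD followed at 37.0 ± 2.23 and 38.0 ± 1.23 CPM per kb. BBC3 came next at 15.3 ± 1.00 and 21.3 ± 0.53. With DMSO the order went on with BID, BCL2L11, BMF, HRK and BIK, with HRK at 3.58 ± 0.21 and BIK at 1.02 ± 0.31 CPM per kb. With GNF5 HRK came after BBC3 at 11.9 ± 0.33 CPM per kb, above BID at 9.88 ± 0.65, while the others kept their order. No 2 neighbours in either order had overlapping ranges over their 3 libraries.

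**Figure D2:**
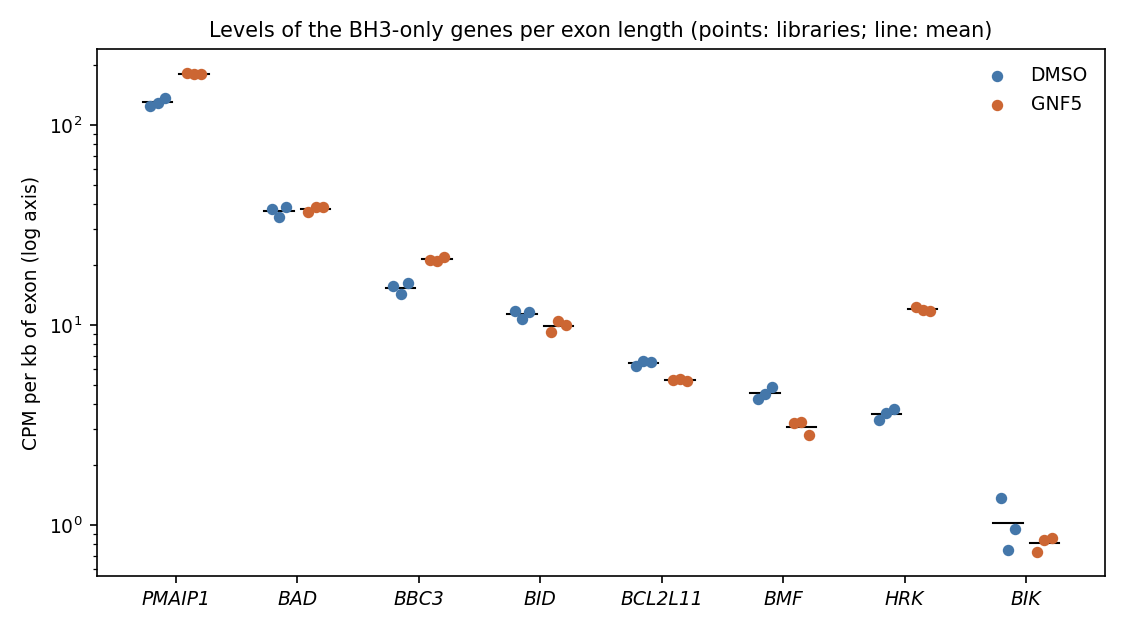
CPM per kb of exon on a log axis for each BH3-only gene, ordered by its DMSO mean, with points for libraries and lines for group means. PMAIP1 is the highest gene in both groups, and HRK moves from 3.58 to 11.9 CPM per kb.

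Summed over the 8 genes, the level was 205.3, 202.6 and 218.2 CPM per kb in the DMSO libraries and 269.5, 269.6 and 271.2 in the GNF5 libraries. The groups did not overlap, and the sum carries no test because its members were chosen. PMAIP1 made up 62.0% ± 1.15 of that sum with DMSO and 66.6% ± 0.547 with GNF5, and HRK 1.72% ± 0.0746 and 4.42% ± 0.135. Without PMAIP1 the sum was 74.8 to 82.5 CPM per kb with DMSO and 88.4 to 91.3 with GNF5. The shares of BAD went from 17.7% to 14.1%, of BID from 5.42% to 3.66% and of BMF from 2.18% to 1.15%.

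The guardians, which the BH3-only proteins bind, moved both ways. Of 6 in the list, 5 were tested, with 3 called higher and 2 lower (median log2 fold change 0.29). These are 60.0% and 40.0% of those tested, against 31.0% and 30.7% of all genes. MCL1, a short-lived guardian, fell from 288.5 ± 3.01 to 206.7 ± 3.83 CPM, and BCL2L1 fell from 138.7 ± 3.62 to 114.5 ± 1.82 CPM. BCL2 rose from 131.0 ± 7.64 to 160.4 ± 4.31 CPM and BCL2L2, encoding BCL-W, from 74.3 ± 3.31 to 105.9 ± 5.08 CPM. BCL2L10 was called higher (adjusted p = 1.37e-06 in edgeR), with 4, 8 and 8 counts in the DMSO libraries and 47, 29 and 32 in the GNF5 libraries, so its level remained very low. BCL2A1 had 0 counts with DMSO and 1, 2 and 0 with GNF5 and was not tested.

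Per kilobase, the guardians summed to 135.8 to 138.6 CPM with DMSO and 121.6 to 122.2 with GNF5. The ratio of the BH3-only sum to the guardian sum was 1.49 to 1.57 in the DMSO libraries and 2.21, 2.22 and 2.23 in the GNF5 libraries, without overlap. Without PMAIP1 it was 0.551 to 0.595 and 0.724 to 0.751. The level of the ratio depends on the division by gene length, and in CPM alone it was 0.829 to 0.882 with DMSO and 1.19 to 1.21 with GNF5. These are RNA levels, and protein was not measured in these files.

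Members were also set against the guardians that they are known to bind most selectively. PMAIP1 over MCL1, per kilobase, was 1.91, 1.94 and 2.03 with DMSO and 3.88, 3.69 and 3.84 with GNF5, as the former rose while the latter fell. HRK over BCL2L1 was 0.0795, 0.0889 and 0.0885 with DMSO and 0.363, 0.338 and 0.337 with GNF5. BAD over the sum of BCL2, BCL2L1 and BCL2L2 was 0.521 ± 0.0232 with DMSO and 0.514 ± 0.0224 with GNF5, and its groups overlapped. The ratios are descriptions and were not tested.

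**Figure D3:**
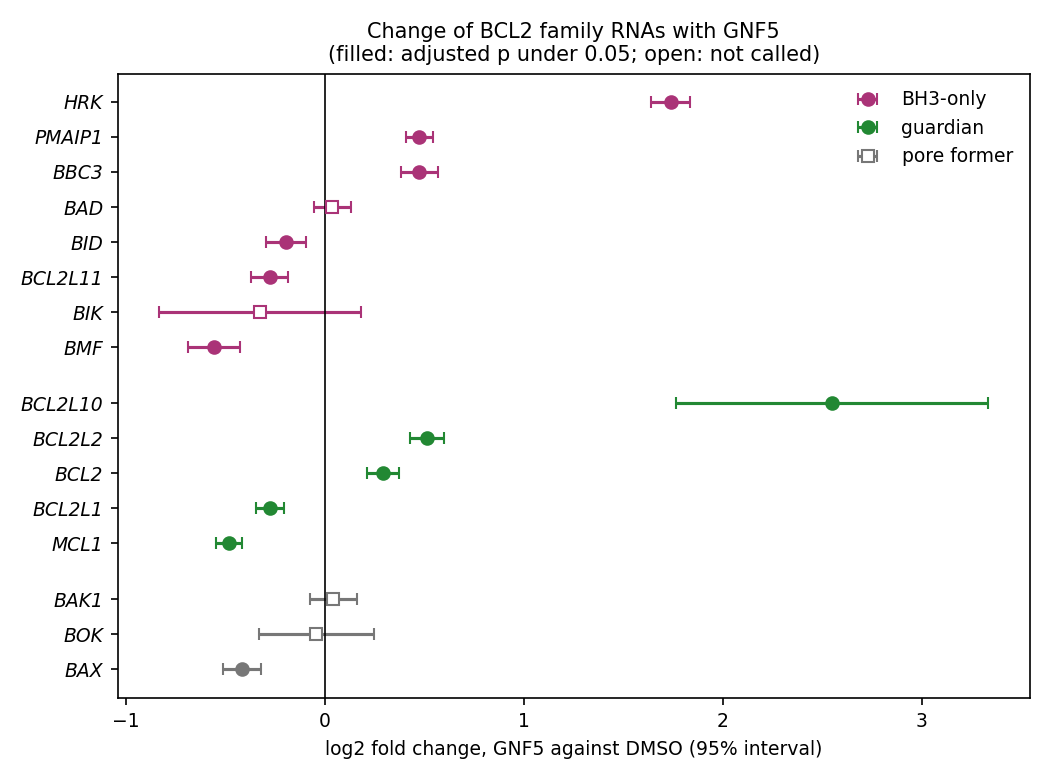
Log2 fold change, GNF5 against DMSO, on the horizontal axis for BH3-only genes, tested guardians and pore formers, with 95% intervals; filled points were called and open points were not. HRK stands at 1.74, and among the guardians MCL1 and BCL2L1 lie left of 0 while BCL2 and BCL2L2 lie right of it. BCL2L10, a guardian at a very low level, lies beyond HRK at 2.55.

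Of the 3 pore formers, 1 was called, where 61.6% of all genes were. BAX, which BIM, PUMA and cleaved BID can activate, fell from 87.0 ± 5.38 to 65.1 ± 3.87 CPM, a log2 fold change of -0.42 ± 0.046. BAK1 was at 20.9 ± 1.08 and 21.5 ± 0.196 CPM (edgeR adjusted p = 0.544), and BOK at 2.97 ± 0.489 and 2.89 ± 0.219 CPM (edgeR adjusted p = 0.804).

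Other proteins carry atypical or BH3-like segments. Of 11 such genes, 9 were tested, with 4 called higher and 2 lower (44.4% and 22.2%, against 31.0% and 30.7% of all genes). BNIP3 and BNIP3L, mitophagy receptors that hypoxia induces, fell from 138.8 ± 9.18 to 39.2 ± 2.17 CPM and from 157.9 ± 11.0 to 49.5 ± 3.97 CPM. BCL2L13, whose gene lies 3.28 kb from BID, rose by 0.53 ± 0.037 on the log2 scale while BID fell, and the ubiquitin ligase HUWE1 rose by 0.20 ± 0.034.

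Genes for proteins that hold or modify BH3-only proteins were mostly lower. Of 26 anchors, 14-3-3 proteins, kinases and phosphatases, 15 fell and 6 rose, or 57.7% lower against 30.7% of all genes. The changes were mostly small, with a median log2 fold change of -0.11. The median absolute log2 fold change was 0.23, below the 0.34 of all tested genes. Called falls included small ones in abundant genes, such as YWHAG (log2 fold change -0.08, 726.8 CPM with DMSO). DYNLL1, the anchor of BIM, fell from 188.4 ± 6.12 to 103.0 ± 4.53 CPM. YWHAQ, a 14-3-3 protein, and PRKACA, a kinase that phosphorylates BAD, fell (log2 fold changes -0.66 and -0.76), whereas the BAD kinase PIM1 rose by 0.70 ± 0.041. In the list of factors that act on the turnover of MCL1 or of BH3-only proteins such as NOXA and BIM, 4 of 9 rose and 1 fell. That is 44.4% higher and 11.1% lower, against 31.0% and 30.7% of all genes. USP9X, which protects MCL1, rose by 0.21 ± 0.040, and TRIM2, MARCHF5 and CUL5 rose (log2 fold changes 0.53, 0.28 and 0.18).

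Upstream of BID, 3 of 10 tested genes of the death receptor arm rose and 2 fell, with 12 in the list. That is 30.0% higher and 20.0% lower, against 31.0% and 30.7% of all genes. CASP8, the protease that cleaves BID, was low and rose from 3.00 ± 0.402 to 5.68 ± 0.495 CPM. CFLAR, its inhibitor, fell from 31.4 ± 0.815 to 25.8 ± 0.799 CPM. The receptors TNFRSF1A and TNFRSF25 rose (log2 fold changes 0.51 and 0.32).

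Downstream of the pore, 5 of 10 genes of the apoptosome and executioner caspases fell and 3 rose. Among all genes, 30.7% were called lower and 31.0% higher. The median absolute log2 fold change of this list was 0.326, near the 0.336 of all tested genes. CYCS, encoding cytochrome c, and APAF1, its partner in the apoptosome, fell (log2 fold changes -0.26 and -0.48), as did the caspase substrate PARP1 (-0.48 ± 0.031), and DFFA, the inhibitor of the apoptotic nuclease, rose by 0.30 ± 0.042. A list of 11 genes held inhibitors of apoptosis (IAPs), their antagonists and the mitochondrial factors AIFM1 and ENDOG. In it 4 rose and 4 fell, AIFM1 and ENDOG among the latter. That is 36.4% each way, near the 31.0% and 30.7% of all genes. XIAP rose from 59.2 ± 1.72 to 85.8 ± 3.64 CPM, and BIRC2 rose by 0.44 ± 0.047 on the log2 scale. BIRC5, encoding survivin, which peaks in mitosis, fell from 185.0 ± 7.28 to 80.7 ± 4.90 CPM, and ENDOG, a mitochondrial nuclease, fell by 0.58 ± 0.049 on the log2 scale.

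Of 25 transcription factors known to act on BH3-only genes, 13 rose and 5 fell, or 52.0% higher against 31.0% of all genes. Their median absolute log2 fold change was 0.28, below the 0.34 of all tested genes. DDIT3, encoding CHOP, rose from 27.2 ± 1.27 to 145.8 ± 9.59 CPM, and ATF4 from 382.0 ± 7.02 to 738.6 ± 5.62 CPM. CEBPB and ATF3 rose (log2 fold changes 1.98 and 1.27). The 12 other targets of ATF4 and CHOP had 10 called higher and 1 lower (median log2 fold change 1.27). That is 83.3% higher and 8.3% lower, against 31.0% and 30.7% of all genes. Among them SESN2, ATF5 and PSAT1 were higher by 1.35, 1.19 and 0.89. The 14 other p53 targets had 3 called higher and 7 lower (median -0.19). CDKN1A, BTG2 and TP53INP1 fell (log2 fold changes -0.75, -0.73 and -1.46) and PERP rose by 0.38 ± 0.032, and of the p53 targets within the BCL2 family, PMAIP1 and BBC3 rose and BAX fell.

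**Figure D4:**
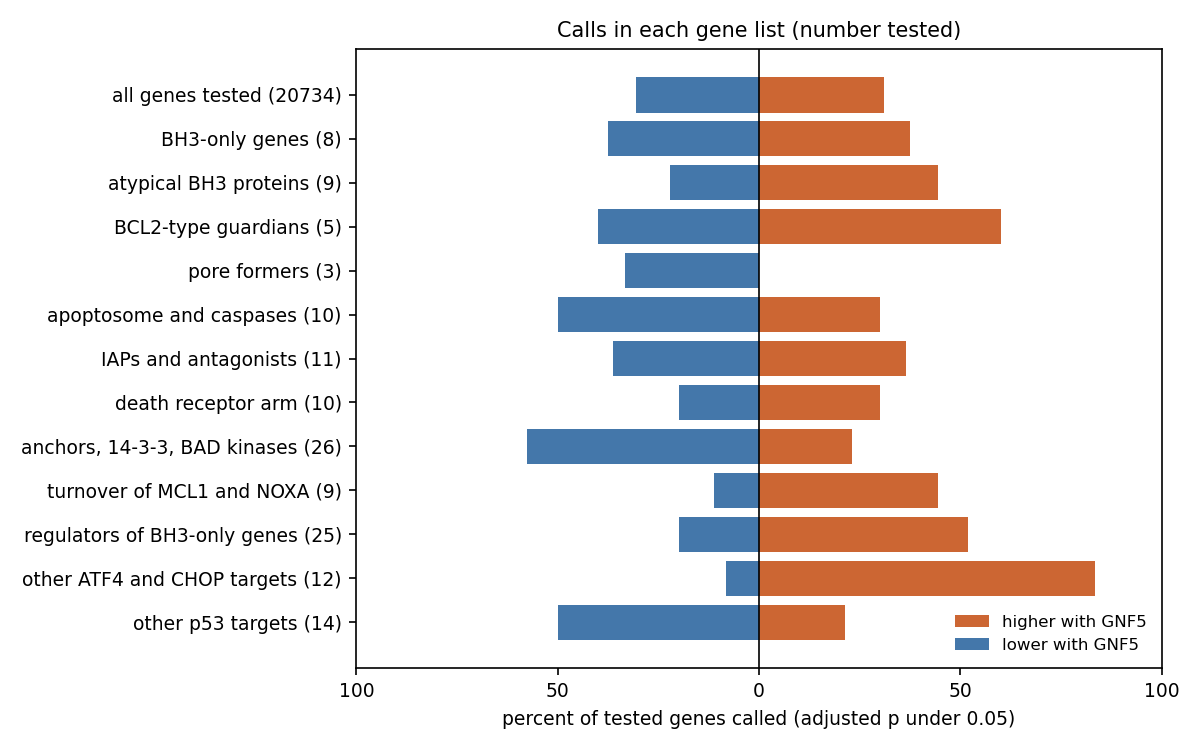
For each gene list, with its number of tested genes in brackets, bars give the percent called higher with GNF5 (right) and lower (left) at an adjusted p under 0.05. The BH3-only genes lie at 37.5% in both directions, near the 31.0% and 30.7% of all genes, and the other ATF4 and CHOP targets lie at 83.3% higher.

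The 8 genes lie on 7 chromosomes, with BIK and BID both on chromosome 22. The nearest tested genes on either side were taken outside the span of each member. Genes that overlap a member, such as MIR4435-2HG at BCL2L11 and GPR137 at BAD (log2 fold changes 1.55 and -0.73), were left out. Most of these neighbours were called, as were 61.6% of all tested genes. Beside HRK, RNFT2 at a distance of 2.51 kb fell by 0.12 ± 0.051 on the log2 scale and FBXW8 at 29.5 kb rose by 0.57 ± 0.047. PMAIP1 lies in a sparse region, where SINHCAFP2, a pseudogene at 112.5 kb, fell by 0.22 ± 0.062 and an unnamed gene at 201.9 kb fell by 1.68 ± 0.201. Beside BBC3, SAE1 at 10.2 kb fell by 0.47 ± 0.034, and an unnamed gene at 23.1 kb was not called. Neither neighbour of BCL2L11 was called, with ACOXL at 0.83 kb having a log2 fold change of -0.10 ± 0.104. Beside BAD, PLCB3 at 0.432 kb fell by 0.22 ± 0.037 and ESRRA at 20.8 kb rose by 0.50 ± 0.041. Beside BIK, MCAT at 2.50 kb fell by 0.39 ± 0.048 and TTLL1 at 21.3 kb rose by 0.80 ± 0.095. BUB1B, a mitotic checkpoint kinase 52.1 kb from BMF, fell by 0.61 ± 0.037, and SRP14-DT, on its other side, was not called. MICAL3, 12.9 kb from BID, fell by 0.27 ± 0.041, while BCL2L13 on its other side rose as given above.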

How the data were processed

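RNA of 3 DMSO and 3 GNF5 libraries was analysed, with groups and replicate numbers from the sample titles. The deposited values are raw counts of read pairs over the exons of each gene, made by the authors with featureCounts 1.6.1 in reverse-stranded mode on Ensembl 101 (GRCh38), per the file headers. Multi-mapped fragments and those on several genes are left out by that program's default, which lowers genes with copies. HTSeq and GRCh37, in the submitters' processing notes beside STAR, Trim Galore and DESeq2, differ from these headers, which were followed.

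Counts were fitted with edgeR 4.0.16 in R 4.3.3 (quasi-likelihood, robust, TMM, no covariate), over the 20734 genes kept by its default filter. The SE was derived from the log2 fold change and the quasi-likelihood F statistic. DESeq2 1.42.0 was an alternative. Library pairs within a group differed by more than counting noise (chi-square per degree of freedom 3.18 to 8.76). Same-numbered libraries did not deviate together (correlations -0.016 to 0.016), so no pairing was used.

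The members and the gene lists were chosen with earlier results of these data known. The text names all 8 members, every gene of lists of up to 6, otherwise up to 4 called genes per list with the lowest p-values at a mean log2 CPM of at least 1, and the 3 genes of a mean log2 CPM of at least 3 closest to HRK, of which 1 is not reported here. YWHAG and AIFM1 are named outside this rule. The neighbours, ratios to guardians and promoter motifs were added after the data were seen, and 7 members had a promoter entry.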

Additional observations from a re-analysis of the deposited data

How the results depend on the processing

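HRK, PMAIP1, BBC3, BCL2L11, BMF and BID kept their direction in all 14 alternatives. HRK was called in all 14, and the other 5 in all but the test against a 1.5-fold change. With that test 1240 genes were higher and 1560 lower, and 1 member was higher and 0 lower. The other alternatives were DESeq2, DESeq2 size factors, upper-quartile factors, total counts alone, no filter, a filter at a CPM of 1 in 3 libraries, the replicate block and leaving out each library. Over them the log2 fold change ran from 1.69 to 1.77 for HRK, 0.44 to 0.51 for PMAIP1, 0.41 to 0.51 for BBC3, -0.31 to -0.27 for BCL2L11, -0.61 to -0.49 for BMF and -0.25 to -0.14 for BID. BAD was not called in any, and its value turned to -0.022 without DMSO replicate 2. BIK was not called in the 13 alternatives that tested it, with a log2 fold change from -0.52 (without DMSO replicate 2) to -0.07 (without DMSO replicate 1), and was removed by the stricter filter. With the replicate block, 6279 genes were higher and 6196 lower, with 3 members each way, and it changed no call of a member. The counts of called genes in the other lists moved by less than 1.5 times in every alternative run on them. The test against a 1.5-fold change and the fits without a library were not run on those lists. Without each library in turn, 5926 to 6200 genes were higher and 5969 to 6212 lower. The summed member level had a log2 ratio of 0.37 (0.35 to 0.41 over the alternatives), and its ratio to the guardians one of 0.54, which became 0.49 without division by gene length. Depth limits BCL2L10 and BCL2A1, since 3 counts equal 0.0494 to 0.0650 CPM here.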
